A study of Homo sapiens with 4 samples.

Results

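The control OGA regions at gene ends are those that the authors annotated as 3′ UTR, the untranslated tail of a messenger RNA, or as downstream, which here means within 3 kb past the last base of a transcript. They numbered 388 of 8977 distinct control regions (4.32%, Wilson 95% interval 3.92 to 4.76). Of these, 268 were 3′ UTR regions and 120 were downstream regions, 47 of them within 1 kb, 40 at 1 to 2 kb and 33 at 2 to 3 kb. The annotation gave promoters precedence, so all of them lay more than 3 kb from any annotated transcription start site, the nearest at 3006 bp. Few regions lay close to that limit: 11 gene-end regions and 34 other control regions outside gene ends lay between 3 and 3.1 kb from a start.

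OGA is the hydrolase that takes the O-GlcNAc sugar off proteins of the nucleus and cytosol, and its chromatin occupancy was profiled by CUT&Tag, in which an antibody directs a transposase to the protein so that nearby DNA is cut and tagged. The cells were H9, an established human embryonic stem cell line, grown as naive cells in PXGL, a medium of N2B27 with PD0325901, XAV939, Go 6983 and human LIF, over mouse embryonic fibroblast feeders. There were 2 libraries from cells with OGA knockdown (shOGA) and 2 from control cells, which the labels call WT. The labels give neither the hairpin sequence nor whether the control carried a hairpin, state no treatment, and do not say that replicates were separate cultures. The deposited data were 1 list of regions per group, in which each region named a peak from both replicates. They held no read count, signal or score, so library depth was unknown, no region had a value per library, and no difference between the lists was tested.

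The 3′ end of a gene is where the nascent transcript is cleaved and polyadenylated and where RNA polymerase II, itself a known substrate of the O-GlcNAc transferase, pauses and terminates. Active 3′ ends are often depleted of nucleosomes, and in compact parts of the genome the ends of genes on opposite strands can face each other.

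Gene-end regions were a little wider than other control regions. Their median width was 1662 bp (interquartile range 1296 to 2265), against 1574 bp for the other 8589 control regions (1243 to 2053). The 3′ UTR regions had a median of 1739 bp and the downstream regions 1632 bp. Among the other classes the medians ran from 1555 bp for intron regions to 1642 bp for exon regions. The gene-end regions ranged from 460 to 7232 bp, and together they covered 738 kb. Of the 388 regions 366 were built from 1 peak of each replicate, and 22 (5.67%) merged more than 2 peaks, against 5.37% of other control regions. No test was made of these differences, since regions of 1 merged list are not replicates.

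**Figure D1:**
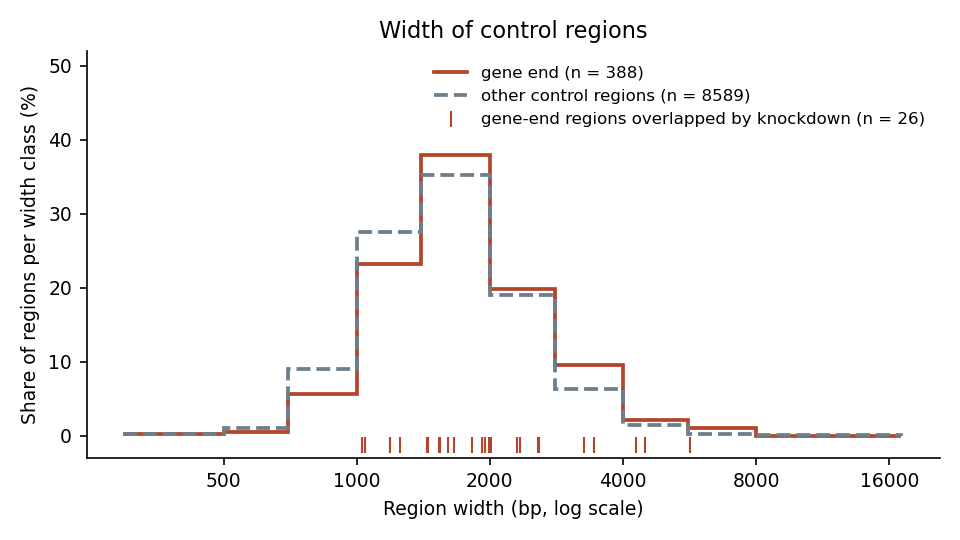
Share of regions (percent, vertical axis) in 10 classes of width (bp, log horizontal axis) for the 388 gene-end regions (solid line) and the 8589 other control regions (dashed line), with ticks at the widths of the 26 gene-end regions that a knockdown region overlapped. The gene-end line lies above the other in the classes from 1400 to 8000 bp, and the overlapped regions span 1027 to 5667 bp.

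The deposited gene name often was not the gene whose end was marked, because each region is listed under the nearest start site. Relative to the listed transcript, 43 regions covered its last base, 160 lay past it, 56 lay inside it and 129 (33.2%, 28.7 to 38.1) lay upstream of its start, where its own 3′ end cannot be. Over all control regions the upstream share was about the same, 33.4%. By these counts 52.3% of gene-end regions reached or passed the last base of the listed transcript (47.4 to 57.2). The share was 72.5% for downstream regions and 43.3% for 3′ UTR regions. For regions past the last base the median distance to it was 2526 bp, and the largest was 52284 bp.

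**Figure D2:**
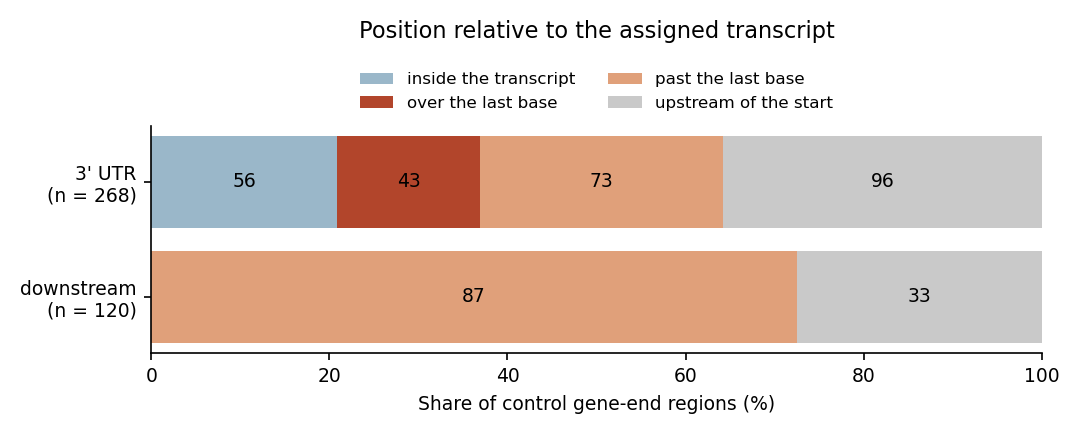
Position of the 268 3′ UTR regions and the 120 downstream regions relative to the transcript they are listed under, as a share of each class (percent, horizontal axis) with the number of regions printed in each segment. Regions upstream of the listed start make up 96 of the 3′ UTR regions and 33 of the downstream regions.

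Gene spans of RefSeq were therefore used to name a gene for each region, called the end gene here. For a 3′ UTR region it was the coding gene touched, with the nearest last base, at any distance from that base. Such a region can lie far from it: that of POLA1 was 152046 bp from the start of a 303061 bp transcript. For a downstream region it was a gene whose last base lay within 3 kb before the region. Where a region is said to lie at the end of a gene, the end gene by this rule is meant. Of 371 listed genes 242 were protein-coding, 55 were long non-coding RNAs, 23 were pseudogenes, 3 were transcribed pseudogenes, 11 were microRNAs, 6 were small nucleolar RNAs, 3 were transfer RNAs, 1 was a small nuclear RNA and 27 had no match in RefSeq. An end gene was found for 368 regions (94.8%), and these named 357 genes, 332 of them protein-coding. The end gene was the listed gene in 163 cases (44.3%) and another gene in 205 (55.7%). At the chromosome 3 cluster of DPPA2 and DPPA4, genes of the pluripotent embryo, the 2306 bp region listed under DPPA2 (109323708 to 109326013, GRCh38) lay at -7119 bp from the DPPA2 start and within 1 kb past the end of DPPA4. The region listed under SIN3A, a corepressor scaffold that binds the O-GlcNAc transferase, lay at the end of PTPN9, and that under PHLDA2, an imprinted gene, at the end of NAP1L4. Of 2 regions listed under STAT3, the transducer of LIF signalling, both lay upstream of its start, and the one for which an end gene was found lay in the 3′ UTR of CAVIN1.

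Some regions lay at or near facing gene ends. This was not counted for other control regions, and the rule that picks regions at gene ends itself favours gene ends nearby. In 64 cases (16.5%) the ends of 2 coding genes on opposite strands that converge lay within the region or 3 kb of it. The share was 32.6% among the 43 regions that covered the last base of the listed transcript. Examples, chosen after their values were seen, are GAPDH and IFFO1, EIF4EBP2 and NODAL, DENND4C and RPS6, CAND2 and RPL32, and RABEPK and HSPA5.

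The widest 3′ UTR region, 7232 bp on chromosome 1 (154349781 to 154357012), was listed under the small nuclear RNA pseudogene RNU7-57P and lay at the end of ATP8B2. The next was at the end of SLC3A2, the glycoprotein partner of several amino acid carriers, on chromosome 11 (62887009 to 62893964, 6956 bp), and stood 948 bp from a 6934 bp promoter region of the same gene. A knockdown region overlapped another promoter region of SLC3A2 (9835 bp), but not its gene-end region. MRS2, a mitochondrial magnesium channel, followed with 5160 bp, merged from 5 peaks, the largest number behind any gene-end region. LOC107986762 (4828 bp), EEF1A1 (4476 bp), LINC02387 (4286 bp, at the end of DENND5B), ABHD12 (4091 bp) and LOC112268193 (4011 bp, at the end of IGF2BP1) completed the 8 widest of that class.

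Among downstream regions the widest, 6555 bp on chromosome 11 (62552646 to 62559200), was listed under AHNAK and lay within 1 kb of the end of EEF1G, a subunit of translation elongation factor 1. A4GALT, which encodes a glycosyltransferase of globo-series lipids, had 5667 bp beginning 1460 bp past its last base. RPL36P5 (4185 bp), RPS19BP1 (4000 bp), PYCARD-AS1 (3671 bp), FOXI3 (3204 bp), MASP2 (3164 bp, at the end of SRM, which encodes spermidine synthase) and TOMM7 (3087 bp) followed.

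Distance to the start site separated the members widely. The median was 8718 bp (interquartile range 4888 to 16834), and 183 regions (47.2%) lay beyond 10 kb. The nearest were listed under LOC107985315 at 3006 bp upstream, MIR26B at 3008 bp, and RPL36P5 and HRC, tied at 3017 bp. The 3 farthest were at POLA1, a DNA polymerase subunit, at 152046 bp, PIK3R3 at 85729 bp and SATB1, a chromatin organiser, at 77787 bp.

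Few genes carried more than 1 gene-end region. Of 371 listed genes 17 had 2 and none had more. By summed width the first 8 were PNMA1 (5038 bp), CYB5D2 (4627 bp), MIR544B (4208 bp), BCL2L1-AS1 (4177 bp), HRC (3955 bp), PSRC1 (3931 bp), LOC203930 (3627 bp) and MKRN1 (3383 bp). By end gene there were 11 such genes. For PNMA1 both regions lay at MIDEAS, and for BCL2L1-AS1 both lay at BCL2L1, which encodes an anti-apoptotic protein. ZFP36L2, an RNA-binding protein that acts on AU-rich 3′ UTRs, had a region over its own last base (1007 bp) and another 1597 bp past it (2100 bp).

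Many gene-end regions were at genes that also had a control promoter region. Of the 332 coding end genes 119 had one (35.8%, 30.9 to 41.1), beside 14.9% of all 20056 protein-coding genes. Taken by the listed gene instead, 99 of 388 gene-end regions (25.5%) had a promoter region at the same gene, beside 117 of 468 exon regions, 26.4% of intron regions and 25.9% of intergenic regions. No test of these shares was made. Among the 121 genes with a gene-end region and a promoter-class region, the median width was 1798 bp for the gene-end regions and 1611 bp for the promoter-class ones. Promoter class means within 3 kb of a start, which in a short gene can lie past its end.

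Beside the 332 of 20056 protein-coding genes that were end genes (1.66%), 1 of 15 core pluripotency genes, 3 of 27 naive and 1 of 17 primed pluripotency genes were, with no test made. The core gene was NANOG, a homeodomain factor, and 13 of the 15 had some control region. Its region on chromosome 12 (7796719 to 7798425, 1707 bp) lay inside the listed transcript, 7317 bp from the start. A second region listed under NANOG (7809434 to 7811059, 1626 bp) began 10288 bp past its last base and lay at the end of SLC2A14, a glucose transporter gene. NANOG had no control promoter region.

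The naive genes were DPPA5, DPPA4 and FGF4. DPPA5, an RNA-binding protein of pluripotent cells, had a region on chromosome 6 (73347561 to 73350146, 2586 bp) that began 2917 bp past its last base, 517 bp from a control region annotated as its promoter. That neighbour lay 1700 to 3612 bp from the DPPA5 start, wholly past the end of the 1214 bp transcript, and was promoter only by the 3 kb rule. DPPA4, a chromatin-associated protein of the early embryo, had the region listed under DPPA2, and its promoter region of 2483 bp lay 12461 bp away. FGF4, a growth factor of the early embryo, had 1586 bp on chromosome 11 (69767088 to 69768673), 2349 bp past its last base.

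The primed gene was NODAL, a ligand of the TGF-beta family, with 2141 bp on chromosome 10 (70429330 to 70431470) starting 466 bp past its last base. Its promoter region was of similar width, at 2135 bp. Of 14 germ layer regulators 1 was, TBX6, with 1527 bp inside the transcript.

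Glycolysis genes contributed 2 of 19 end genes. GAPDH, the glyceraldehyde phosphate dehydrogenase, had a region over its last base (chromosome 12, 6538336 to 6542059, 3724 bp), most of it beyond the transcript, and had no promoter region. SLC2A3, a glucose transporter, had 2270 bp starting 55 bp past its last base. The lists of O-GlcNAc cycling (19 genes), signalling targeted by PXGL (31), imprinted genes (20), DNA methylation and polycomb (28), 3′ end processing (20), trophectoderm (19) and fibroblast markers (13) gave 0 end genes. Across the lists 8 of 231 genes were end genes. OGA and OGT were not among the listed or end genes.

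**Figure D3:**
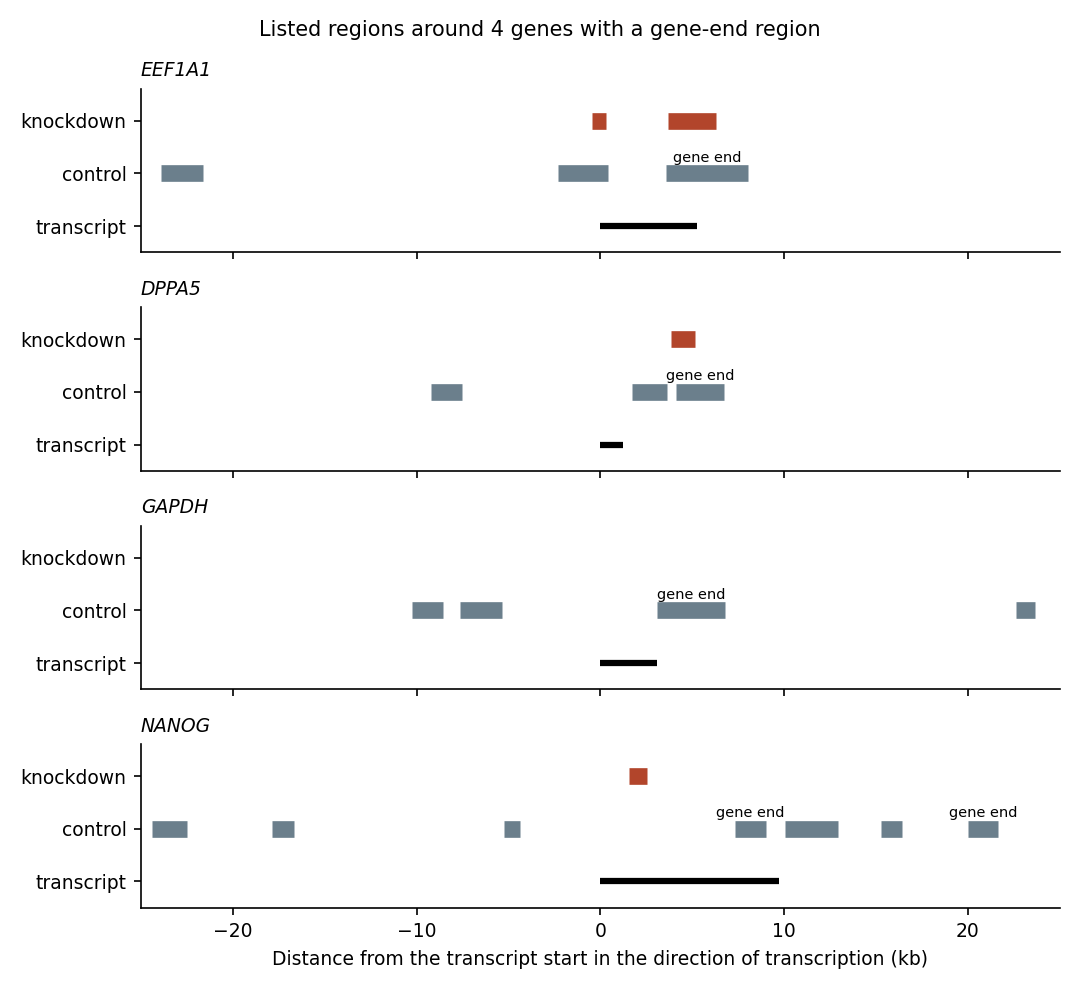
Listed regions of the knockdown (upper bars) and control (middle bars) around the transcripts of EEF1A1, DPPA5, GAPDH and NANOG (lower bars), by distance from the transcript start in the direction of transcription (kb), with the gene-end regions marked. EEF1A1 has regions at both ends in both lists, DPPA5 has a knockdown region at its end, GAPDH has none, and the knockdown region of NANOG lies near its start, away from both gene-end regions.

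Gene families were counted by gene symbol after the values were seen. Of 86 cytosolic ribosomal protein genes 7 were end genes (8.14%): RPL22L1, RPL32, RPL37, RPS14, RPS24, RPS3 and RPS6. Of 71 translation factor genes 5 were (7.04%): EEF1A1, EEF1G, EEF2, EIF2S2 and EIF3K. The region of RPS14, a protein of the small subunit, began 27 bp past its last base on chromosome 5 (150440955 to 150442608, 1654 bp). RPL32, of the large subunit, had 2497 bp, annotated as 3′ UTR, starting 126 bp past its last base. Such genes, like ACTB and GAPDH, have many processed copies, and how reads were placed among them was not checked.

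SLC transporters gave 16 of 386 genes (4.15%), among them SLC3A2, SLC7A3 and SLC16A1. The SRSF, HNRNP and SF3 splicing families gave 3 of 47 (HNRNPA1, HNRNPK and SRSF7), histones 2 of 92, ZNF genes 4 of 517 (0.774%) and olfactory receptors 0 of 392. These counts describe the list and were not tested. ACTB, cytoplasmic actin, had 2087 bp over its last base on chromosome 7 (5525145 to 5527231), 3693 bp from a promoter region of 4264 bp.

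Most gene-end regions, like most control regions of every class, had no counterpart in the knockdown list. That list held 1334 regions, against 8977 in control. A knockdown region overlapped 26 of 388 by at least 1 bp (6.70%, 4.61 to 9.64), beside 10.0% of all control regions. The share was 7.46% for 3′ UTR regions (20 of 268) and 5.0% for downstream regions (6 of 120), whereas exon regions stood at 12.4% and promoter regions at 10.1%. Of the 47 regions within 1 kb downstream, 0 were overlapped, which allows a share of up to 7.56% by the Wilson interval. Among regions of the control median width or more, 7.34% of gene-end regions (16 of 218) and 12.7% of others were overlapped, and among narrower ones 5.88% (10 of 170) and 7.70%. The gene-end interval ended at 9.64% and met those of all classes except exon regions, whose interval began at 9.71%. The intervals cover counting error alone, and the difference between classes was not tested.

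**Figure D4:**
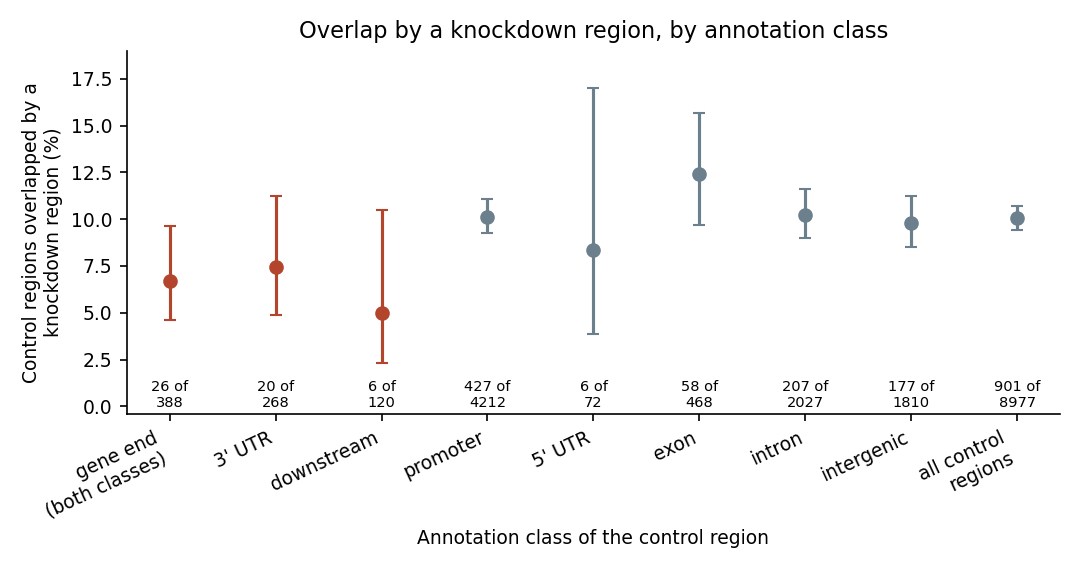
Share of control regions overlapped by a knockdown region (percent, vertical axis) by annotation class, with Wilson 95% intervals and the counts below each point. Gene-end regions stand at 6.70%, against 12.4% for exon regions and 10.1% for promoter regions.

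EEF1A1, which encodes elongation factor 1-alpha, had listed regions at both ends in both lists. At its 3′ end the knockdown region covered chromosome 6 positions 73514762 to 73517335 (2574 bp) and the control region 73513004 to 73517479 (4476 bp). This knockdown region was the widest of all at gene ends. The EEF1A1 promoter region of 2724 bp in control was also overlapped. A4GALT had the widest of the 26 control regions, of which the knockdown region covered 17.0%, at the side toward the gene. One of its 2 promoter regions, of 2286 bp, was overlapped as well. PSRC1, a microtubule-associated protein, was the remaining gene of 3 with overlap at both ends: the knockdown and control regions past its end were nearly equal in width, at 1160 and 1188 bp.

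Of the pluripotency genes listed above, DPPA5 had a gene-end region in both lists. The knockdown region lay at 73349150 to 73350423 (1274 bp) and covered 38.6% of the control region, extending past its gene-side edge. Neither the gene-end region of NANOG nor those of DPPA4, FGF4 and NODAL were overlapped. H1-3, a linker histone, had a knockdown region of 554 bp inside a control region of 1190 bp, 108 bp from its 3839 bp promoter region. For RPS6, a protein of the small ribosomal subunit, the knockdown region of 682 bp was annotated as downstream and the control region of 3273 bp as 3′ UTR.

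The rest of the 12 widest overlapped regions were at the ends of DENND5B (4286 bp), TRNP1 (3433 bp), SH2D3A (2568 bp), SDR42E2 (2345 bp), FHAD1 (2303 bp), C9orf85 (2016 bp), SATB1 (1996 bp) and MKRN1 (1953 bp). Narrower ones included TXN, which encodes thioredoxin, with 537 bp in the knockdown and 1537 bp in control, MYCL, a MYC family transcription factor, with 971 and 1542 bp, ATG13, an autophagy factor, with 916 and 1546 bp, and HOXB3, with 485 and 1656 bp. These 4 were chosen after their values were seen.

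Where both lists had a region, the knockdown one was narrower in all 26 pairs, and knockdown regions were narrower outside gene ends too. The 26 knockdown regions ranged from 415 to 2574 bp with a median of 844 bp, and the 26 control regions from 1027 to 5667 bp with a median of 1871 bp. The knockdown region lay wholly inside the control region in 20 pairs and covered a median of 42.1% of it (16.2 to 97.5%). The knockdown and control regions were annotated in the same class in 19 pairs.

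**Figure D5:**
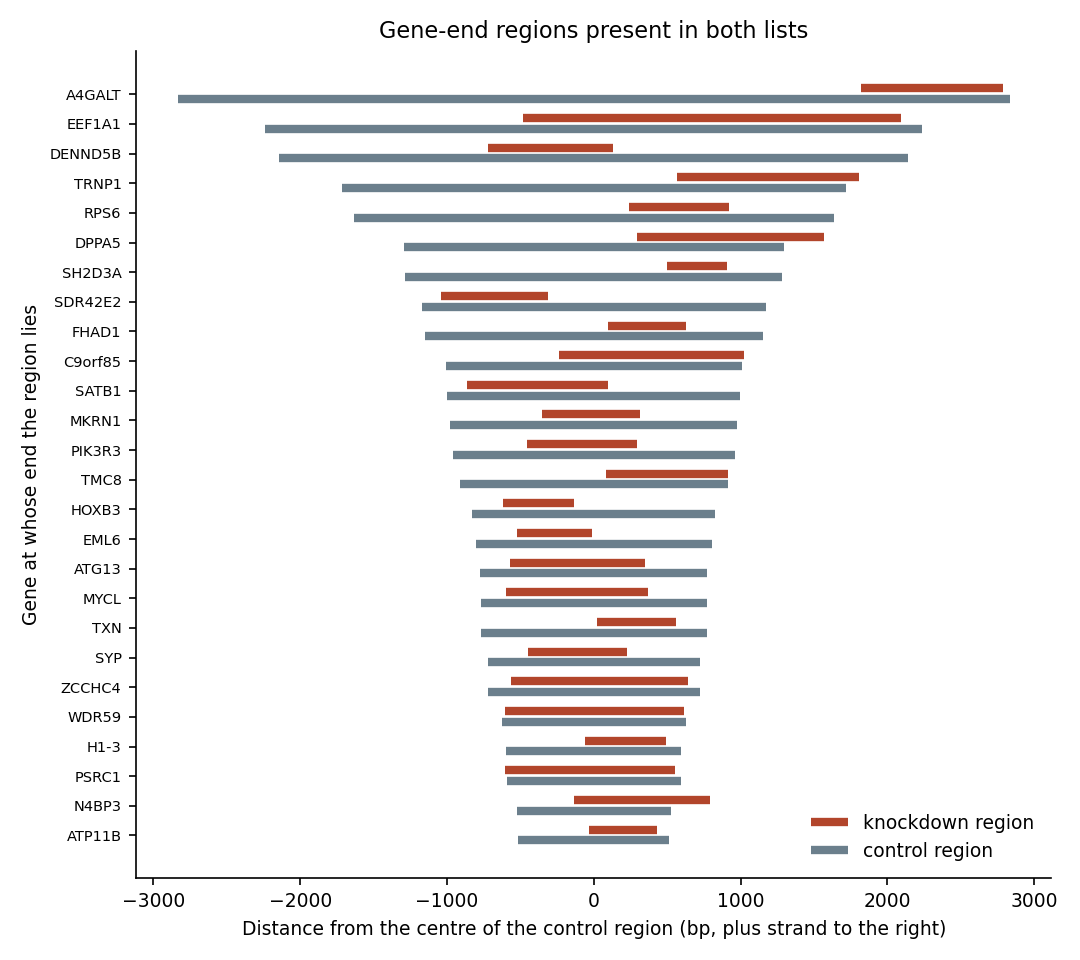
The 26 pairs of overlapping regions, with the knockdown region (upper bar) and the control region (lower bar) of each pair drawn by distance from the centre of the control region (bp) and ordered by control width. In 20 pairs the knockdown bar lies within the control bar, and at WDR59 and PSRC1 the bars nearly coincide.

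Promoter regions of the end genes were compared with the knockdown list as well. Of 121 end genes that also carried a promoter region in control, 16 had a knockdown overlap at the promoter, 9 at the gene end, 3 at both and 99 at neither. Over all control promoter regions, counted by region and not by gene, 427 of 4212 were overlapped (10.1%). By the knockdown list itself, 19 of the 332 coding end genes had a promoter region there (5.72%), beside 2.05% of all protein-coding genes. Among these were SRSF7 and HNRNPA1, RNA-processing factors, and HSPA5, an endoplasmic reticulum chaperone, all named after their values were seen. Their gene-end regions were not overlapped. NANOG had its knockdown promoter region with no overlap of its gene-end region.

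Some gene-end regions had a close neighbour. The median gap to the nearest other control region was 14449 bp, against 20553 bp for other control regions, and 44 gene-end regions (11.3%) lay within 1 kb of one, against 9.01%. Within 5 kb the shares were nearly equal, 26.0% and 25.7%. Among the other classes the median gap ran from 13850 bp for 5′ UTR to 26171 bp for intron regions. Promoter regions had 10.5% within 1 kb. For the 44 gene-end regions within 1 kb, 20 neighbours were again gene-end regions and 9 were promoter regions. Those 20 form pairs of mutual neighbours, each pair counted from both sides, so the 44 regions are not 44 separate sites. A knockdown region overlapped 6 of the 44 (13.6%) and 20 of the other 344 (5.81%). With a limit of 5 kb it was 10 of 101 (9.90%) and 16 of the other 287 (5.6%). The same shares were not taken for control regions outside gene ends, and these differences were not tested.

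In the knockdown list 38 of 1334 regions were at gene ends (2.85%, 2.08 to 3.89), 25 of them 3′ UTR and 13 downstream, against 4.32% in the control list. Their median width was 812 bp, against 1662 bp for the control gene-end regions. Outside gene ends the medians were 724 bp in the knockdown list and 1574 bp in the control list. Of these 38, 23 overlapped a control region (60.5%, 44.7 to 74.4), beside 69.0% of all knockdown regions. A control gene-end region was met by 20 of them, and the regions listed under NEAT1, FABP5P1 and QARS1 met control promoter regions instead. No end gene was sought for knockdown regions. The other 15 overlapped nothing in control, and the 5 widest were listed under LOC107984992 (1811 bp), LOC107986949 (1286 bp), RIF1 (1033 bp), LOC105374711 (891 bp) and RBM22 (814 bp). The region listed under KLF4, a transcription factor of the naive state, was another of the 15, with 679 bp annotated as downstream within 1 kb. It was named after its value was seen.

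The gene-end regions were spread over most chromosomes. The exceptions were chromosome 8, with 0 of 121 control regions (interval up to 3.08%), and Y, with 0 of 1. Chromosome 1 held the most, 54 of its 973 control regions (5.55%), followed by chromosome 17 with 38 of 653 (5.82%). Chromosome 20 had the largest share, 24 of 380 (6.32%). A knockdown region overlapped 0 of these 24, and 3 of 20 on chromosome 6, the site of EEF1A1, DPPA5 and H1-3. Over all chromosomes it was 26 of 388 gene-end regions (6.70%). Overlap was not counted by chromosome for other control regions, and counts this small do not set a chromosome apart.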

How the data were processed

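OGA CUT&Tag was measured in 4 libraries, 2 per group, with groups taken from the labels. Build GRCh38.p13 and the tools ChIPseeker 1.12.1, SEACR 1.3, edgeR, DESeq2 and Bowtie2 2.3.4.3 are named, without their roles, per the submitters' processing notes. Per the file headers, the authors deposited position, width, annotation, transcript and signed distance to the nearest start for each merged region, with no count or score. Because a listed region needs a peak of both replicates, absence from a list does not show absence of a peak in 1 library. One repeated control line was used once (8978 lines, 8977 regions).

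The members and gene lists were chosen with earlier results of these data known. Named genes follow a rule: the widest 8 per class, the widest 12 overlapped by knockdown, list members, genes with several regions, and extremes of distance; width stands in for a score. Other genes, among them ZFP36L2, ACTB, H1-3, PSRC1, WDR59, NEAT1, FABP5P1, QARS1 and those marked in the text, were chosen after seeing values. Of 371 listed genes 344 matched RefSeq symbols (GRCh38.p14), used for names and neighbouring genes. By a method chosen after seeing the data, the end gene of a 3′ UTR region was the coding gene it touches, with the nearest last base. For a downstream region it was a gene whose last base lies at the annotated distance or, where none did, within 3 kb before the region. Overlap was at least 1 bp, and its step was tested on simulated data. Intervals are Wilson 95%. The planned edgeR test of counts was not run, as no counts were used here, and no sequence was used. Software was matplotlib 3.10.9, scipy 1.17.1, pandas 2.3.3, numpy 2.4.6 and Python 3.11.15.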

Additional observations from a re-analysis of the deposited data

How the results depend on the processing

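No paired analysis was possible because each deposited list pools the libraries of its group, and for the same reason no replicate could be left out and the planned test of counts was not run. The share of gene-end regions overlapped by a knockdown region (6.70%) ranged from 4.90% with centres within 500 bp to 9.46% with equal numbers of the widest regions (7 of 74). It stayed within its interval under all 10 alternatives, but not all of them could move it. A 200 bp floor and a limit to chromosomes 1 to 22, X and Y removed no gene-end region, and the 50% overlap rule left the same 26 of 388. Other control regions were given only for the width limit (12.7% against 7.34%). The 9.46% therefore has no matching share and is not to be set against the 10.0% of all control regions. Some shares reached or left the interval of the value reported. The share with a promoter region at the listed gene was 21.4% with promoters within 1 kb, the share reaching or passing the last base was 43.3% for 3′ UTR and 72.5% for downstream regions alone, and gene ends were 4.85% of regions with the control median width or more. The share listed under another gene was 58.3% where 1 candidate gene was found, an alternative chosen after seeing the data. Depth is unknown, so it could not be weighed against the counts.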
